A study of Mus musculus with 19 samples.

Results

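Megakaryocyte-erythroid progenitors (MEP) and granulocyte-macrophage progenitors (GMP) are the 2 committed progenitors into which the common myeloid progenitor is classically split. They were taken here as all arrays labelled with either population: 3 MEP and 2 GMP arrays of the 19 in the series, each hybridised with total RNA of sorted bone marrow cells from adult C57BL/6 mice 8 to 12 weeks old. Both sorts were negative for lineage markers and for Sca-1 (spelled Scal in the labels) and positive for the stem cell factor receptor Kit. MEP were low in CD16/32 and low in CD34, and GMP were high in both. No treatment or genetic change is given for any sample. Other populations are used below only to place these cells: LSK cells (lineage-negative, Kit-positive and Sca-1-positive, which contain the stem cells, 3 arrays), common myeloid progenitors (CMP, low in CD16/32 and high in CD34, 3 arrays), Ter119-positive early erythroblasts (2 arrays), late erythroblasts (3 arrays) and Gr1-positive granulocytes (3 arrays). The comparison asks which genes and noncoding RNAs separate the erythroid and megakaryocytic branch from the granulocytic and monocytic branch at the progenitor stage.

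The branch decision is classically described as a contest between the transcription factors GATA1 and PU.1, which bind and restrain one another. GATA1 works with FOG1, TAL1 and KLF1 to switch on red cell and platelet genes. PU.1 works with the C/EBP family to switch on genes of neutrophils and monocytes, and neutrophil granules are loaded in a fixed order, primary granule proteins first and secondary and tertiary ones later. Growth factor receptors follow the branch: erythropoietin acts on the first, and the colony stimulating factors on the second.

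The array carried 20660 named genes, 4610 intergenic noncoding regions and 1317 custom features designed by the study. A level below is the log2 signal of a probe minus that of the 75th percentile of the array, so it describes composition and not RNA per cell, and levels of different probes are not comparable. In sorted populations, fewer cells that express a gene and less RNA per cell cannot be told apart. The 75th percentile lay at 403 to 554 intensity units on the MEP arrays and at 266 and 320 on the GMP arrays. Of the spots, 50.4% to 61.6% were well above background on MEP arrays and 49.5% and 49.8% on GMP arrays. The array MEP 3 had the highest detection floor of the 5 (29.2 intensity units) and 173 spots with outlier flags. Arrays of 1 population correlated with r of 0.986 to 0.994 across 19351 features, which are not independent replicates, and MEP with GMP arrays with r of 0.948 to 0.956. The number of arrays limits the precision. Nothing in the labels says that the arrays come from separate animals, so the p-values reflect only how far arrays vary within populations. That spread was shared over all 19 arrays of the 7 populations, and it may be technical.

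MEP and GMP differed in 7023 of the 21930 features tested (32%). Of these, 2970 were higher in MEP (13.5% of those tested) and 4053 were higher in GMP (18.5%). Differences of 2-fold or more were evenly split, with 1880 features higher in MEP and 1879 higher in GMP (8.57% each). Testing required a signal well above background on all arrays of at least 1 of the populations, and a feature was called where the adjusted p of limma was under 0.05 and the higher population was detected on every array. The median of all differences was -0.07 on the log2 scale, MEP minus GMP, and the arrays of the populations did not overlap for 57.6% of the features. The split between the directions rests on the scaling. The share of calls that were higher in MEP was 42.3% here, 54.2% after quantile normalization, 66.1% when only probes detected on all arrays set the percentile, 35.4% with normexp background correction, and 82.1% of only 2987 calls when arrays were scaled to their spike-in control spots, where the median difference was 0.70. The slide was not balanced between the populations, since MEP lay on slides 2, 3 and 4 and GMP on slides 1 and 3. With the slide as a block 6337 features were called. On slide 3, which held MEP 2 and GMP 2, the differences had the sign of the whole comparison for all 205 genes and features chosen for naming. Most of these were chosen among features whose MEP and GMP arrays do not overlap, which fixes that sign. The shared sign therefore says nothing about the slide.

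**Figure D1:**
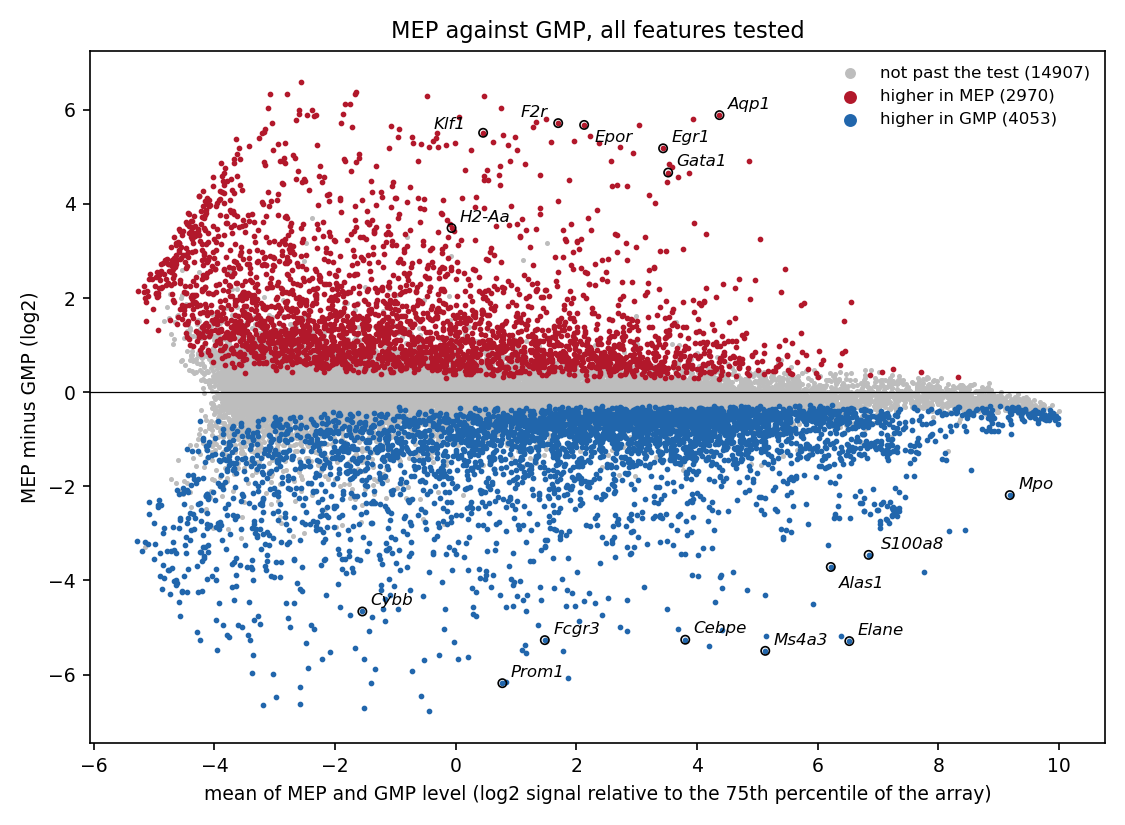
Every feature tested, by its mean level over MEP and GMP (horizontal, log2 of signal over the array's 75th percentile) and its difference MEP minus GMP (vertical, log2). Red points (2970) were higher in MEP and blue points (4053) higher in GMP past the test, grey points did not pass, and circles mark genes named in the text; erythroid and platelet genes lie near 5 to 6 at the top and granulocyte genes near -5 to -6 at the bottom.

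The RNA of the sorted surface markers followed the sort for CD16/32 and not for CD34. Fcgr3, which encodes CD16, read -1.40, -1.07 and -1.01 on the MEP arrays and 4.28 and 3.94 on the GMP arrays, a difference of -5.27 ± 0.37 (log2 difference ± SE, 3 against 2 arrays, here and below). The SE uses the spread shared by all 7 populations, so scatter within the other populations enters it. Fcgr2b, which encodes CD32, differed by -2.92 ± 0.34. Both passed the test (adjusted p = 5.9e-08 and 1.0e-05). Cd34 read 6.91, 6.32 and 7.11 in MEP, sorted as CD34 low, and 6.98 and 6.96 in GMP, sorted as CD34 high. The populations overlapped, and the difference of -0.19 ± 0.34 did not pass the test (adjusted p = 0.73); its 2 probes disagreed in sign, and the sign turned under quantile normalization (0.20), the percentile over detected probes (0.067), spike-in scaling (0.58) and without MEP 2 (0.042). Kit was 0.77 ± 0.17 higher in MEP (adjusted p = 0.003), a call lost without GMP 2 (0.56) and with spike-in scaling. Ly6a, the gene of Sca-1, which both sorts excluded, read -0.74, -1.18 and -1.01 in MEP and 3.29 and 3.38 in GMP and was 4.31 log2 units lower in MEP (-4.31 ± 0.35, adjusted p = 2.6e-07). The marker genes chosen for both labels lay on the side of their label: all of Gata1, Klf1, Epor, Itga2b and Pf4 were higher in MEP, and all of Elane, Mpo, Prtn3, Ctsg, Ms4a3, Csf1r and Fcgr3 were higher in GMP. Fcgr3 encodes a marker of the sort, so its side is not independent of the gate. These genes were chosen with earlier results of these data known, and Csf3r, which is not among them, did not pass the test.

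Transcription factors of the erythroid and megakaryocytic branch were led by the GATA1 complex. Of 27 members tested, 15 were higher in MEP and 2 lower, with a median of 0.92, against 13.5% and 18.5% of all features and a median of -0.07. The same shares stand against every list below, and named genes alone were called more often, at 37.8%. Whether a list departs from these shares was not tested. A member detected on every array of only 1 population could be called only toward that population. Klf1, the erythroid Krüppel-like factor, read 3.17, 3.56 and 2.90 in MEP and -1.84 and -2.76 in GMP. Gfi1b, a repressor needed for red cells and platelets, read 4.89, 5.40 and 4.78 in MEP against 0.32 and -0.10 in GMP, a difference of 4.91 ± 0.26. Zfpm1, which encodes the GATA1 partner FOG1, read 5.77, 6.09 and 6.02 against 1.66 and 1.11, a difference of 4.57 ± 0.25. For these 3 genes every MEP array lay above every GMP array by more than 4 log2 units, and their adjusted p-values were at most 5.6e-09. Tal1, a partner of GATA1 in progenitors, differed by 2.64 ± 0.18 and Meis1, a homeobox cofactor of stem cells and megakaryocytes, by 2.65 ± 0.25. The DNA-bound scaffold Ldb1 (1.38 ± 0.18) and the globin repressor Bcl11a (1.89 ± 0.15) were higher in MEP too, and Sox6, another globin repressor, was detected on 0 of 2 GMP arrays and was at least 2.4-fold higher.

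Several factors of the same branch were not higher in MEP past the test. Runx1 (0.41 ± 0.26) and Myb (-0.16 ± 0.21), broad regulators of blood progenitors, did not pass the test, with adjusted p = 0.26 and 0.63. Fli1, an ETS factor of megakaryocytes, read 2.99, 3.07 and 2.79 in MEP and 3.46 and 3.72 in GMP. Its arrays did not overlap and were higher in GMP, and the difference of -0.64 ± 0.48 did not pass (adjusted p = 0.36). With only the MEP and GMP arrays fitted, 4 of the 27 factors tested were called lower in MEP. Lyl1, a relative of Tal1, was lower in MEP (-1.03 ± 0.17, adjusted p = 2.2e-04), and so was the small MAF protein gene Mafg (-0.62 ± 0.14, adjusted p = 0.0033).

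Myeloid transcription factors went both ways. Of 22 tested, 6 were higher in MEP and 10 lower, with a median of -0.51 that turned to 0.26 under spike-ins, against 0.70 for all features, and then 4 were called lower. Those lower in MEP were Gfi1, Spi1, Irf5, Irf8, Klf4, Zeb2 and 4 members of the C/EBP family. Cebpe, which drives late granulocyte maturation, read 0.76, 1.76 and 1.0 in MEP and 6.44 and 6.43 in GMP. Gfi1, the paralogue of Gfi1b, encodes a repressor needed for neutrophil development. It read 2.22, 1.91 and 2.04 in MEP and 6.01 and 5.92 in GMP, a difference of -3.91 ± 0.26 (adjusted p = 3.7e-08). The paralogues thus lay in opposite directions, with Gfi1b higher in MEP by 4.91. Within the C/EBP family the difference was -5.26 ± 0.41 for Cebpe, -3.30 ± 0.36 for Cebpd, -2.68 ± 0.22 for Cebpb and -2.16 ± 0.58 for Cebpa, and their adjusted p-values were at most 0.01.

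Spi1, which encodes PU.1, read -0.99, -1.39 and -0.72 in MEP and 1.32 and 0.71 in GMP. The arrays did not overlap, and the difference was -2.05 ± 0.71 with adjusted p = 0.04. That call was lost under quantile normalization, the percentile over detected probes, spike-in scaling, the authors' series values and the removal of any 1 of the 5 arrays, with values between -1.28 and -2.35. Cebpa lost its call under quantile normalization, spike-in scaling, the authors' series values and without GMP 1, with values between -1.39 and -2.20. Irf8, which steers progenitors toward monocytes and dendritic cells, read 5.38, 5.06 and 4.77 in MEP and 6.87 and 6.89 in GMP (-1.80 ± 0.25, adjusted p = 4.6e-05), and Klf4, a monocyte factor, differed by -2.0 ± 0.42 (adjusted p = 0.0019). With spike-in scaling Irf8 stood at -1.04 and was not called.

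The 6 members of the myeloid factor list that were higher in MEP were all immediate early genes, which respond within minutes to growth factors and to stress. Egr1 read 5.78, 6.29 and 6.01 in MEP and 0.99 and 0.70 in GMP, a difference of 5.18 ± 0.74 (adjusted p = 6.9e-05). Egr2 differed by 4.90 ± 0.41, the nuclear receptor gene Nr4a1 by 4.46 ± 0.59, Fos by 1.98 ± 0.45, Jun by 1.91 ± 0.34 and Junb by 1.82 ± 0.36. The MEP arrays lay above the GMP arrays for each of these. Egr1 was also high on LSK (mean 6.64), CMP (5.15) and granulocyte arrays (5.93), so GMP (0.85) and early erythroblasts (-1.78) were the low ones among these 6 populations. The handling time of each sort is not stated in the labels, and its part in these levels was not tested.

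**Figure D2:**
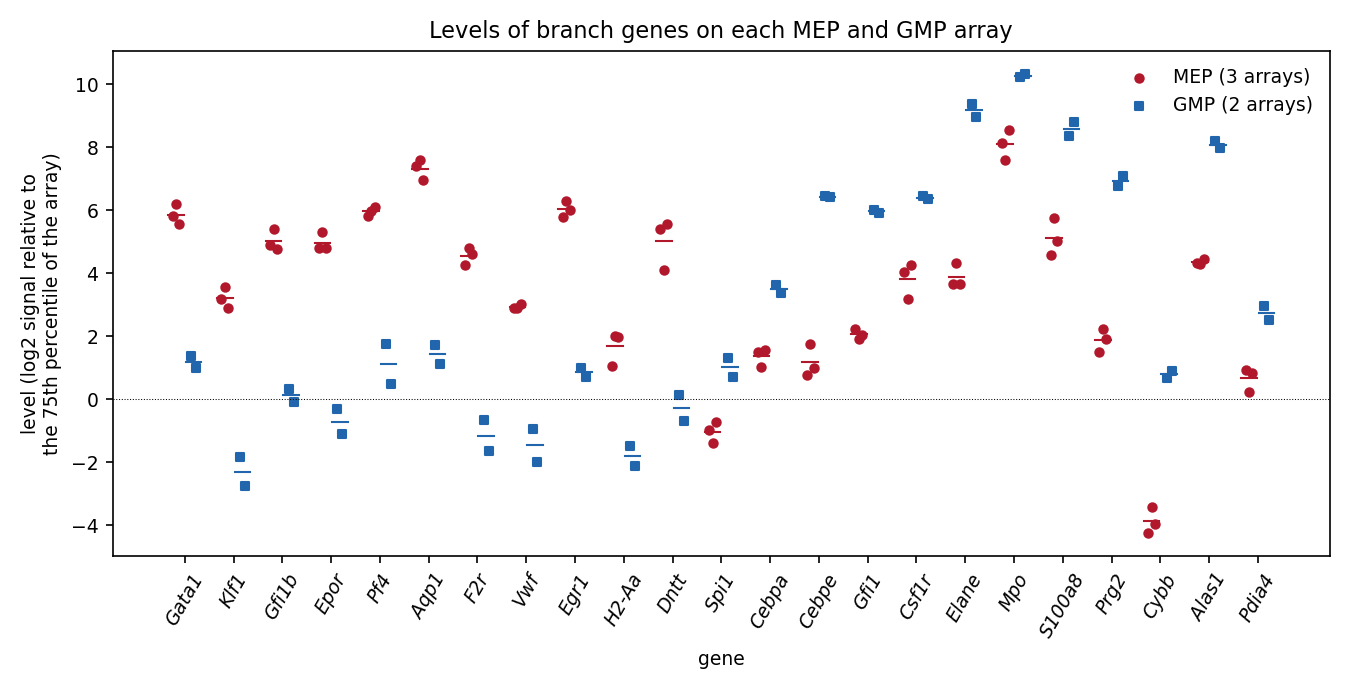
Levels of 23 genes (vertical, log2 of signal over the array's 75th percentile) on each MEP array (red circles, 3) and each GMP array (blue squares, 2), with horizontal bars at the means. No gene shown has overlapping arrays, and the gap is narrowest for Spi1 (MEP -0.72 to -1.39, GMP 0.71 and 1.32).

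Cytokine receptors divided by branch. Of 30 tested, 10 were higher in MEP and 13 lower, with a median of -0.49 that became 0.27 with spike-in scaling, where 2 were called lower. The erythropoietin receptor gene Epor read 4.80, 5.29 and 4.81 in MEP and -0.30 and -1.12 in GMP. No array of either population overlapped, and the difference was 5.68 ± 0.24 (adjusted p = 6.9e-10). Il1rl1, the receptor for interleukin 33 (3.21 ± 0.16), and Tek, a receptor for angiopoietins (2.68 ± 0.59), were higher in MEP; Tek lost its call without GMP 1 (1.43).

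Receptors of lymphoid and multipotent progenitors were on the MEP side as well. Flt3, a growth factor receptor of early multipotent and lymphoid progenitors, read 4.45, 3.62 and 3.41 in MEP and 1.26 and 0.76 in GMP, a difference of 2.81 ± 0.34 (adjusted p = 1.2e-05). Il7r, the receptor for interleukin 7, was detected on every MEP array and on 0 of 2 GMP arrays and was at least 5.4-fold higher in MEP (adjusted p = 4.6e-09). A bound of this kind sets the brighter population against the detection floor of the dimmer one.

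The receptors lower in MEP included those for macrophage and granulocyte-macrophage factors, and also receptors for interleukins, interferons and tumour necrosis factor. Csf1r, the receptor for macrophage colony stimulating factor, read 4.03, 3.17 and 4.25 in MEP and 6.43 and 6.37 in GMP (-2.59 ± 0.29). Csf2rb, the chain shared by the receptors for GM-CSF, interleukin 3 and interleukin 5, differed by -2.67 ± 0.28 and Csf2ra, the specific chain for GM-CSF, by -1.85 ± 0.29. Their adjusted p-values were at most 1.7e-04, although Csf2ra was not called with spike-in scaling (-1.08). The interleukin 6 receptor gene Il6ra (-1.89 ± 0.34), the decoy receptor gene Il1r2 (-2.16) and the receptor genes Tnfrsf1b (-2.13) and Tnfrsf1a (-1.78) for tumour necrosis factor were also lower. Csf3r, the receptor for granulocyte colony stimulating factor, read 7.05, 7.04 and 7.60 in MEP and 7.24 and 7.24 in GMP. These values overlap, and the difference of -0.01 ± 0.21 did not pass the test (adjusted p = 0.98). Csf3r has 1 probe on the array, and its mean was 8.96 in early erythroblasts and 7.49 in granulocytes. These levels are relative to a 75th percentile of 64.2 and 81.3 intensity units in early erythroblasts and 361 to 434 in granulocytes. They therefore do not rank the RNA of the 2 populations.

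Red cell membrane genes were the most one-sided of the MEP groups. Of 30 tested, 25 were higher in MEP and 0 lower, with a median of 4.10. Among the 20 detected on all 5 arrays 15 were higher, with a median of 4.77. With normexp the median of the 30 was 2.08. Aqp1, the water channel of red cells, read 7.39, 7.61 and 6.95 in MEP and 1.73 and 1.13 in GMP (5.89 ± 0.26, adjusted p = 8.1e-10). The carbonic anhydrase gene Car1 differed by 5.81 ± 0.32, the erythroid membrane protein gene Ermap by 5.74 ± 0.29, the sphingosine kinase gene Sphk1 by 5.67 ± 0.27 and the adducin gene Add2 by 5.5 ± 0.27. Of the blood group genes, Kel read 3.33, 3.75 and 3.44 in MEP and -1.60 and -2.31 in GMP (5.46 ± 0.23), Rhd read 4.71, 4.90 and 4.26 against -0.32 and -1.12 (5.35 ± 0.25), and Icam4 read 3.10, 3.36 and 2.47 against 0.23 and 0.61 (2.55 ± 0.25). Rhag, of the Rh complex, was detected on 0 of 2 GMP arrays and was at least 24.9-fold higher in MEP. The same held for Ank1, the membrane skeleton protein ankyrin, which was at least 16.2-fold higher.

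The members that did not pass included a main protein of the mature red cell. Slc4a1, the anion exchanger band 3, read -0.86, -0.78 and -0.87 in MEP and -1.20 and -1.56 in GMP (0.54 ± 0.24, adjusted p = 0.11) and 11.62 on average in early erythroblasts. Epb41, the skeleton protein 4.1 (0.29 ± 0.13, adjusted p = 0.12), and the glycophorin gene Gypc (0.35 ± 0.14, adjusted p = 0.075) did not pass either.

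Since these genes were higher together, the 250 bases before their start sites were searched for the core GATA motif AGATAA on both strands, in promoters from RefSeq on mouse assembly GRCm38.p6. For 17 of the 25 red cell membrane genes called, 21 promoters were found, and 8 of them (38.1%) held the motif, against 9.99% of all 32851 promoters, 6.78% of those of genes tested and 9.63% of those of genes at least 2-fold higher in MEP. The 8 promoters belong to 7 genes, since 2 are overlapping starts of Sphk1 with the same match. It was in 29.2% of 24 promoters of secondary and tertiary granule genes and in 0 of 15 of primary granule genes. The 120 bases before the start are shown for the 3 blood group genes above, 5′ to 3′ on the strand of the gene, with the match in capitals (TTATCT is the motif on the other strand). A match is a run of letters and not a measured binding site, and the differences between these motif shares were not tested.
Kel (chr6:41704326-41704445, minus strand): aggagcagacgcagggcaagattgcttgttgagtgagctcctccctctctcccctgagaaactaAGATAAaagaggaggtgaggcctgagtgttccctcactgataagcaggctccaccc
Rhd (chr4:134864416-134864535, plus strand): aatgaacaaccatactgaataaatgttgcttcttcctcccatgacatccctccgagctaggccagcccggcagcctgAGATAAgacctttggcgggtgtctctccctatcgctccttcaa
Icam4 (chr9:21029312-21029431, plus strand): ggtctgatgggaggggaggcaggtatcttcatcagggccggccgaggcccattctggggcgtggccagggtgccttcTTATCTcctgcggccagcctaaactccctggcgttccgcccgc
The match ends 51 bases before the start in Kel and 38 bases before it in both Rhd and Icam4.

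Heme and iron genes showed smaller differences, and the enzymes of the first step lay in opposite directions. Of 31 tested, 17 were higher in MEP and 5 lower, with a median of 0.49. The higher ones numbered 11 without GMP 2 and 11 with spike-in scaling, and the lower ones fell to 1 with spike-in scaling and to 2 without GMP 1. Alas1, the housekeeping form of the enzyme that starts heme synthesis, read 4.33, 4.28 and 4.46 in MEP and 8.18 and 7.96 in GMP (-3.71 ± 0.24, adjusted p = 2.2e-08). Alas2, the erythroid form, read -1.99, -1.82 and -1.75 in MEP and -2.61 and -2.83 in GMP (0.87 ± 0.21, adjusted p = 0.0051). Neither pair of values overlapped, and Alas2 averaged 10.19 in early erythroblasts. The later enzymes were higher in MEP by 1.54 ± 0.21 for Alad, 1.5 ± 0.20 for Cpox and 0.43 ± 0.14 for Fech.

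Iron uptake split in the same uneven way. Tfr2, a transferrin receptor that senses iron, read 5.56, 6.03 and 5.64 in MEP and 2.31 and 2.0 in GMP (3.59 ± 0.21, adjusted p = 9.7e-09), and Blvrb, a biliverdin reductase of red cells, differed by 4.02 ± 0.26. Tfrc, the main transferrin receptor, read 2.61, 2.52 and 2.23 in MEP and 2.52 and 2.31 in GMP. Its arrays overlapped and the difference of 0.04 ± 0.19 did not pass the test (adjusted p = 0.91). Of 5 globin genes tested, 3 were higher in MEP, Hbb-bt by 1.39 ± 0.19, Hba-a1 by 1.20 ± 0.22 and Hba-a2 by 0.82 ± 0.22, the last not without GMP 2 (0.56). The globin copies are near-identical and a probe may read more than 1 of them.

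Megakaryocyte and platelet genes were higher in MEP for 26 of 32 tested and lower for 1, with a median of 2.63. Among the 23 detected on all 5 arrays 17 were higher and 1 lower, with a median of 1.88. With normexp the median of the 32 was 1.80. F2r, a thrombin receptor, read 4.27, 4.81 and 4.59 in MEP and -0.68 and -1.65 in GMP. Pf4, platelet factor 4 of the alpha granules, read 5.82, 5.99 and 6.09 against 1.73 and 0.48 (4.86 ± 0.37), and Vwf, von Willebrand factor, read 2.89, 2.90 and 3.01 against -0.95 and -1.99 (4.40 ± 0.24). The adhesion receptor of platelets showed the same split: Gp5 differed by 5.65 ± 0.31 and Gp9 by 3.08 ± 0.18, and Gp1ba was detected on 0 of 2 GMP arrays and was at least 27.3-fold higher in MEP. Mmrn1, the platelet storage protein multimerin, was at least 34.7-fold higher, the nitric oxide receptor subunit Gucy1a1 at least 11.8-fold and the junction protein gene Esam at least 13-fold. Itga2b, which encodes CD41, read 3.08, 3.13 and 3.53 against 0.66 and 0.61 (2.61 ± 0.42, adjusted p = 2.0e-04). Its partner in the fibrinogen receptor, Itgb3, differed by 0.67 ± 0.36 and did not pass (adjusted p = 0.18), and neither did Cd9 (0.56 ± 0.41) nor Clec1b (0.33 ± 0.25). Nbeal2, needed to form alpha granules, was the member lower in MEP (-0.74 ± 0.24, adjusted p = 0.026).

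Genes of stem and multipotent cells were mostly on the MEP side. Of 27 tested, 22 were higher in MEP and 1, Ly6a, was lower, with a median of 1.85. Among the 19 detected on all 5 arrays 14 were higher and 1 lower, with a median of 1.48. With normexp the median of the 27 was 1.11. Besides Vwf, which the platelet list holds as well, Slamf1, the CD150 receptor of stem cells, was detected on 0 of 2 GMP arrays and was at least 11.7-fold higher in MEP, and the transcriptional regulator Mn1 was at least 7.0-fold higher. Angpt1, an angiopoietin, read 4.37, 4.42 and 4.45 in MEP and 1.20 and 1.28 in GMP (3.17 ± 0.32, adjusted p = 2.3e-06). Hlf (1.48 ± 0.42, adjusted p = 0.015) and Procr (1.40 ± 0.28, adjusted p = 0.0014), factors of the most primitive cells, were higher in MEP than in GMP, while LSK cells stood above both with means of 4.53 and 3.47. The homeobox gene Hoxb4 (-0.73 ± 0.34) did not pass, and Robo4 read 1.05, 0.40 and 1.08 in MEP and -1.88 and -3.01 in GMP and did not pass either (3.29 ± 1.66, adjusted p = 0.15).

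Lymphoid genes were higher in MEP for 7 of 12 tested and lower for 1, with a median of 1.24. Dntt, the template-independent DNA polymerase of lymphocyte precursors, read 5.39, 4.11 and 5.55 in MEP and 0.12 and -0.68 in GMP (5.29 ± 0.36, adjusted p = 4.7e-08), below its LSK mean of 7.48. Lymphotoxin beta (Ltb) differed by 2.16 ± 0.36. Notch1 was the exception, at -1.14, -0.79 and -0.89 in MEP and 1.75 and 2.19 in GMP (-2.91 ± 0.55, adjusted p = 7.7e-04). Markers of mature T and NK cells were higher in MEP for 9 of 15 tested and lower for 1, with a median of 1.61, and for 5 with normexp; the T cell factor gene Tcf7 was at least 8.2-fold higher, the receptor chain gene Cd3g at least 2.5-fold, and the kinase gene Lck differed by 2.09 ± 0.13. The summed linear level of the 17 T and NK genes on the array was 18.4 to 24.8 times the 75th percentile in MEP and 11.3 to 12.7 times in GMP. Cd8a was detected on none of the 5 arrays, and Cd3e did not differ beyond the test (-0.29 ± 0.18, adjusted p = 0.24). Of 10 B cell markers only 3 could be tested and 2 of these were lower in MEP, Cd79b (-1.10 ± 0.29) and Bank1 (at least 1.9-fold); the defining genes Ms4a1, Pax5 and Ebf1 were detected on 1 of 3 MEP and 0 of 2 GMP arrays. Endothelial and stromal markers were higher for 3 of 6 tested, against 13.5% of all features. These were Emcn at least 2.5-fold, Col1a2 by 2.80 ± 0.32 and Pdgfrb by 2.12, while Cdh5 and Col1a1 were detected on none of the 5 arrays. The part of other cells in these values was not tested.

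Primary granule genes were higher in GMP without exception among those tested, 15 of 15, with a median of -2.52; with spike-in scaling 9 of the 15 were called lower in MEP and the median was -1.75. Elane, neutrophil elastase, read 3.65, 4.31 and 3.67 in MEP and 9.37 and 8.96 in GMP. Prtn3, proteinase 3, read 3.72, 3.25 and 4.02 against 8.33 and 8.01 (-4.50 ± 0.42, adjusted p = 1.1e-06), and Ctsg, cathepsin G, read 6.97, 6.69 and 7.25 against 9.94 and 9.87 (-2.94 ± 0.31, adjusted p = 3.7e-06). Mpo, myeloperoxidase, differed least among these 4 enzymes, with 8.12, 7.60 and 8.53 in MEP and 10.22 and 10.33 in GMP (-2.19 ± 0.39, adjusted p = 4.7e-04; not called with spike-in scaling at -1.42). No array overlapped for any of these. Fcnb, a ficolin, differed by -4.64 ± 0.45, the serine protease gene Prss57 by -4.20 ± 0.42, the lysozyme gene Lyz2 by -2.95 ± 0.48 and the granule proteoglycan gene Srgn by -1.42 ± 0.19.

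The promoters of these genes were searched in the same way for GAGGAAGT, a core ETS motif of the PU.1 type. For 13 of the 15 genes, 15 promoters were found, and 4 of them (26.7%) held it. This compares with 2.44% of all promoters, 2.51% of those of genes tested and 3.93% of those of genes at least 2-fold higher in GMP. The motif was in 12.5% of the 24 promoters of secondary and tertiary granule genes and in 0 of the 21 red cell membrane promoters. The neighbouring protease genes Prtn3 and Elane, which lie close together on chromosome 10, both held it on the strand of the gene, ending 88 and 78 bases before the start.
Prtn3 (chr10:79879547-79879666, plus strand): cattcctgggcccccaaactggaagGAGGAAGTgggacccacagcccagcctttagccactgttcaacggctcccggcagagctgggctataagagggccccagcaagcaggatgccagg
Elane (chr10:79886192-79886311, plus strand): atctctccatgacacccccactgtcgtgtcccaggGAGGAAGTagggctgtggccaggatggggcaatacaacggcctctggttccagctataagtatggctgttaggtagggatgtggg
The C/EBP motif TTNNGCAA was in 3 of these 15 promoters (20%) and in 10 of 24 (41.7%) of the secondary and tertiary granule genes called. It was in 9.56% of all promoters, 8.19% of those of genes tested and 11.4% of those of genes at least 2-fold higher in GMP. The differences between these motif shares were not tested.

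Secondary and tertiary granule genes, known from later neutrophil stages, were higher in GMP than in MEP for 27 of 31 tested, with 0 lower and a median of -3.46. Among the 24 detected on all 5 arrays 20 were higher in GMP, with a median of -3.45. Hp, haptoglobin, read 2.28, 2.65 and 2.73 in MEP and 7.75 and 7.73 in GMP (-5.19 ± 0.40, adjusted p = 1.7e-07). Ltf, lactoferrin, read 1.83, 2.95 and 2.07 against 5.5 and 5.97 (-3.45 ± 0.44), and S100a8, a calcium-binding protein of the neutrophil cytosol, read 4.58, 5.74 and 5.02 against 8.36 and 8.79 (-3.46 ± 0.40). The adjusted p-values of both were at most 2.2e-05. In each of these the granulocyte mean was higher still, at 9.27, 10.19 and 9.84. Mmp9, the gelatinase, was detected on 1 of 3 MEP arrays and differed by -4.22 ± 0.53, and the protease inhibitor gene Slpi by -4.32 ± 0.36. Itgam, which encodes CD11b (-0.30 ± 0.29, adjusted p = 0.49), Cxcr2, a neutrophil chemokine receptor (-1.34 ± 0.63, adjusted p = 0.13), and Padi4, a histone-modifying enzyme of neutrophils (-0.39 ± 0.23, adjusted p = 0.22), did not pass. The summed level of the 32 genes on the array was 194 to 335 times the 75th percentile in MEP, 2034 to 2606 times in GMP and 12047 to 13324 times in granulocytes. It was 1490 to 1715 times in LSK, where all 32 genes were detected, 677 to 1959 times in early erythroblasts and 264 to 492 times in CMP, so GMP was not the only progenitor with a high sum. The early erythroblast arrays were dim, with a low 75th percentile, so their sum is not comparable with the others. The GMP sort was negative for lineage markers, and the part of other cells in these sums was not tested.

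The NADPH oxidase, which makes superoxide in phagocytes, was lower in MEP for 7 of 8 genes tested. Cybb, its catalytic membrane subunit, read -4.25, -3.41 and -3.97 in MEP and 0.66 and 0.90 in GMP (-4.66 ± 0.40, adjusted p = 4.7e-07). The cytosolic subunits Ncf1 and Ncf4 differed by -2.69 ± 0.35 and -2.48 ± 0.26, and Rap1a (0.01 ± 0.92) did not pass. With spike-in scaling 3 of the 8 were called lower and 0 higher.

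Eosinophil, basophil and mast cell genes were higher in GMP for 15 of 22 tested, with a median of -3.28, and 1 was higher in MEP. The eosinophil granule genes were among the largest of all differences. Prg2, major basic protein, read 1.51, 2.24 and 1.90 in MEP and 6.76 and 7.09 in GMP (-5.05 ± 0.39), its relative Prg3 differed by -5.31 ± 0.35 and the eosinophil peroxidase gene Epx by -5.36 ± 0.70, with adjusted p-values of at most 2.8e-05. The basophil protease genes Prss34 (-4.37 ± 0.46) and Mcpt8 (-3.50 ± 0.32) and the IgE receptor gene Fcer1a (-3.05 ± 0.29) were lower in MEP too. Markers of mature eosinophils and of mast cells did not follow: Ccr3 (-0.01 ± 0.29), Siglecf (-0.10 ± 0.39) and Cpa3, mast cell carboxypeptidase (0.02 ± 0.22), did not pass, with adjusted p-values of 0.98, 0.88 and 0.97. The member higher in MEP was Il1rl1. The 24 genes on the array summed to 46.1 to 59.8 times the 75th percentile in MEP, 308 to 378 times in GMP and 1364 to 1558 times in granulocytes.

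Monocyte and dendritic cell genes separated into those of monocytes, higher in GMP, and a few of dendritic cells, higher in MEP. Of 21 tested, 16 were lower in MEP and 4 higher, with a median of -2.02. With spike-in scaling 9 were called lower, and without GMP 2 the higher ones numbered 2. The lower ones included F13a1, a transglutaminase (-4.21 ± 0.30), Fn1, fibronectin (-4.10 ± 0.37), the endotoxin co-receptor gene Cd14 (-3.62 ± 0.45) and the chemokine receptor gene Ccr2 (-2.06 ± 0.32), each with adjusted p of at most 1.3e-04. All 4 higher ones were dendritic cell genes: Batf3, a transcription factor, read -0.76, 0.32 and 0.48 in MEP and -3.86 and -3.77 in GMP (3.83 ± 0.39), and the lectin gene Clec9a (2.18 ± 0.26), the integrin gene Itgax (1.89 ± 0.47) and the lectin gene Cd209a (1.79 ± 0.43) followed, with adjusted p of at most 0.0064. Siglech, of plasmacytoid dendritic cells, did not pass (-0.17).

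The genes of MHC class II were on the MEP side with them. H2-Eb1 read 3.27, 4.51 and 4.36 in MEP and 0.61 and 0.07 in GMP (3.71 ± 0.37), the invariant chain gene Cd74 read 2.88, 4.01 and 4.17 against 0.56 and -0.31 (3.56 ± 0.38), H2-Aa differed by 3.49 ± 0.64 and H2-Ab1 by 2.21 ± 0.28. The adjusted p-values were at most 5.9e-04, and MEP 1 was the lowest MEP array for all 4 genes while still above both GMP arrays. Ciita, the class II transactivator, read -2.19, -1.69 and -2.40 against -3.69 and -2.68 and did not pass (1.09 ± 0.59, adjusted p = 0.18). Class I differed little, with H2-K1 at 0.30 ± 0.12 and B2m at 0.19 ± 0.10 (adjusted p = 0.079 and 0.18). Interferon-stimulated genes in the same list were higher in MEP for Usp18 (2.13 ± 0.15), Rsad2 (2.12 ± 0.15) and Irf7 (1.78 ± 0.20). In all, 15 of 31 genes of antigen presentation and interferon response were higher in MEP and 0 lower, with a median of 0.71.

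Macrophage markers were mixed and few were detected. Of 13 on the array 7 could be tested. Of these, 3 were higher in GMP and 1 in MEP, against 18.5% and 13.5% of all features. The median was 0.05, and its sign changed in 5 of the alternative settings. Adgre1, which encodes F4/80, read -3.58, -3.30 and -3.64 in MEP and 0.91 and 1.27 in GMP (-4.60 ± 0.30), and the adhesion molecule gene Vcam1 differed by -4.75 ± 0.24, both with adjusted p of at most 2.5e-08. Spic, a factor of red pulp and marrow macrophages, was higher in MEP (1.94 ± 0.43, adjusted p = 0.0027; 1.14 and not called without GMP 2), the complement gene C1qb did not differ beyond the test (0.05 ± 0.20), and Cd163, Siglec1, Timd4 and Mertk were detected on none of the 5 arrays. Pattern recognition receptors were lower in MEP for 12 of 18 tested, with a median of -1.81. With spike-in scaling 7 of 18 were lower (median -1.04), and among features detected in all groups 7 of 13 (median -0.76). They were led by Tlr1 (-4.05 ± 0.28) and included the endotoxin receptor gene Tlr4 (-2.92 ± 0.35). The C-type lectin gene Clec4d was the single one higher in MEP, at 3.40, 3.94 and 3.82 against 1.89 and 1.57 (1.99 ± 0.22, adjusted p = 6.8e-06).

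Adhesion and homing genes were called both ways, 5 higher in MEP and 8 lower of 21 tested, against 13.5% and 18.5% of all features. Their median of -0.41 turned to 0.36 with spike-in scaling, where none was called lower. The lower ones numbered 3 without GMP 1, 3 with quantile normalization and 3 with the detected-probe percentile. S1pr1, the receptor by which cells leave tissues toward blood, read -0.06, 0.42 and 0.55 in MEP and -3.60 and -3.71 in GMP (3.96 ± 0.35, adjusted p = 7.1e-07). Cxcr4, which holds progenitors in the marrow, read 1.03, 0.71 and 0.47 against 2.42 and 2.82 (-1.88 ± 0.22, adjusted p = 1.1e-05).

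Cell division genes were lower in MEP by a modest amount that depends on the scaling. Of 49 tested, 30 were lower in MEP and 1 higher, with a median of -0.61. Foxm1, the factor that drives mitotic genes, read 1.19, 0.92 and 1.06 in MEP and 2.56 and 2.20 in GMP (-1.32 ± 0.17), cyclin B1 (Ccnb1) read 3.42, 3.15 and 3.03 against 4.67 and 4.31 (-1.29 ± 0.21) and the ubiquitin carrier gene Ube2c differed by -1.25 ± 0.23, with adjusted p of at most 7.1e-04. Pcna, the sliding clamp of DNA replication, did not pass (-0.24 ± 0.14, adjusted p = 0.24). Cyclin E1 (Ccne1) was the member higher in MEP (0.71 ± 0.17, adjusted p = 0.0046). With spike-in scaling the median was 0.16, still under the 0.70 of all features, and limma called 0 of the 49 (1 at an unadjusted p under 0.05).

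Inhibitors of division were higher in MEP for 6 of 14 tested and lower for 2, against 13.5% and 18.5% of all features, with a median of 0.36. Btg2, an antiproliferative gene, read 3.01, 3.37 and 3.82 in MEP and 0.80 and 0.72 in GMP (2.64 ± 0.19, adjusted p = 5.9e-08), Cdkn1c, the kinase inhibitor p57, differed by 2.36 ± 0.36 and the stress gene Gadd45g by 2.31 ± 0.21. Its relative Gadd45b lay the other way (-2.01 ± 0.33, adjusted p = 2.2e-04; not called with spike-in scaling at -1.24). Ribosome biogenesis did not separate the branches. Of 24 genes limma called 0 (1 at an unadjusted p under 0.05), with a median of -0.006, and 0 were called with spike-in scaling, while other settings called up to 3 higher and up to 2 lower. Myc, which drives these genes, stood at 0.08 and did not pass.

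Genes of the secretory route were lower in MEP. Of 26 genes of protein folding and export in the endoplasmic reticulum, 23 were lower and 1 higher, with a median of -1.38. Sdf2l1, a cofactor of the chaperone BiP, read 2.15, 1.98 and 2.24 in MEP and 4.61 and 4.29 in GMP (-2.33 ± 0.20), the disulfide isomerase gene Pdia4 differed by -2.07 ± 0.36, Xbp1, a factor that expands the reticulum, by -1.81 ± 0.17 and Hspa5, BiP itself, by -1.29 ± 0.14. Their adjusted p-values were at most 4.2e-04. Ddit3, the stress factor CHOP, was the one higher in MEP (1.29 ± 0.30, adjusted p = 0.0043). In the lysosome, 16 of 22 genes were lower and 0 higher, with a median of -1.24, among them Ctsh, a cathepsin (-2.93 ± 0.32), Neu1, a sialidase (-2.36 ± 0.25), and Cd63, a membrane protein of lysosomes and granules (-2.18 ± 0.35). With spike-in scaling the medians were -0.61 and -0.47, and 0 reticulum genes and 1 lysosome gene were called lower.

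Glycolysis differed by isozyme. Of 24 genes 15 were lower in MEP and 5 higher, with a median of -1.07, whereas spike-in scaling gave 2 lower and 5 higher, with a median of -0.30. Hexokinase 3 (Hk3), of myeloid cells, read 2.69, 2.05 and 3.03 in MEP and 6.10 and 5.70 in GMP (-3.31 ± 0.39), while hexokinase 1 (Hk1), the red cell form, was higher in MEP (1.26 ± 0.22). Pkm, the widespread pyruvate kinase, differed by -2.11 ± 0.35, and Pklr, the form of liver and red cells, was detected on 0 of 2 GMP arrays and was at least 10.3-fold higher in MEP. Among phosphofructokinases Pfkm was higher in MEP (1.93 ± 0.17) and Pfkp lower (-1.85 ± 0.16). Adjusted p-values of these 6 genes were at most 3.5e-04. Aldoc (2.14 ± 0.15) was higher in MEP, and Pgam1 (-2.35 ± 0.32), Ldhb (-2.76 ± 0.35) and Gapdh (-0.82 ± 0.13) were lower, while Ldha did not pass (-0.36 ± 0.20, adjusted p = 0.2).

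**Figure D3:**
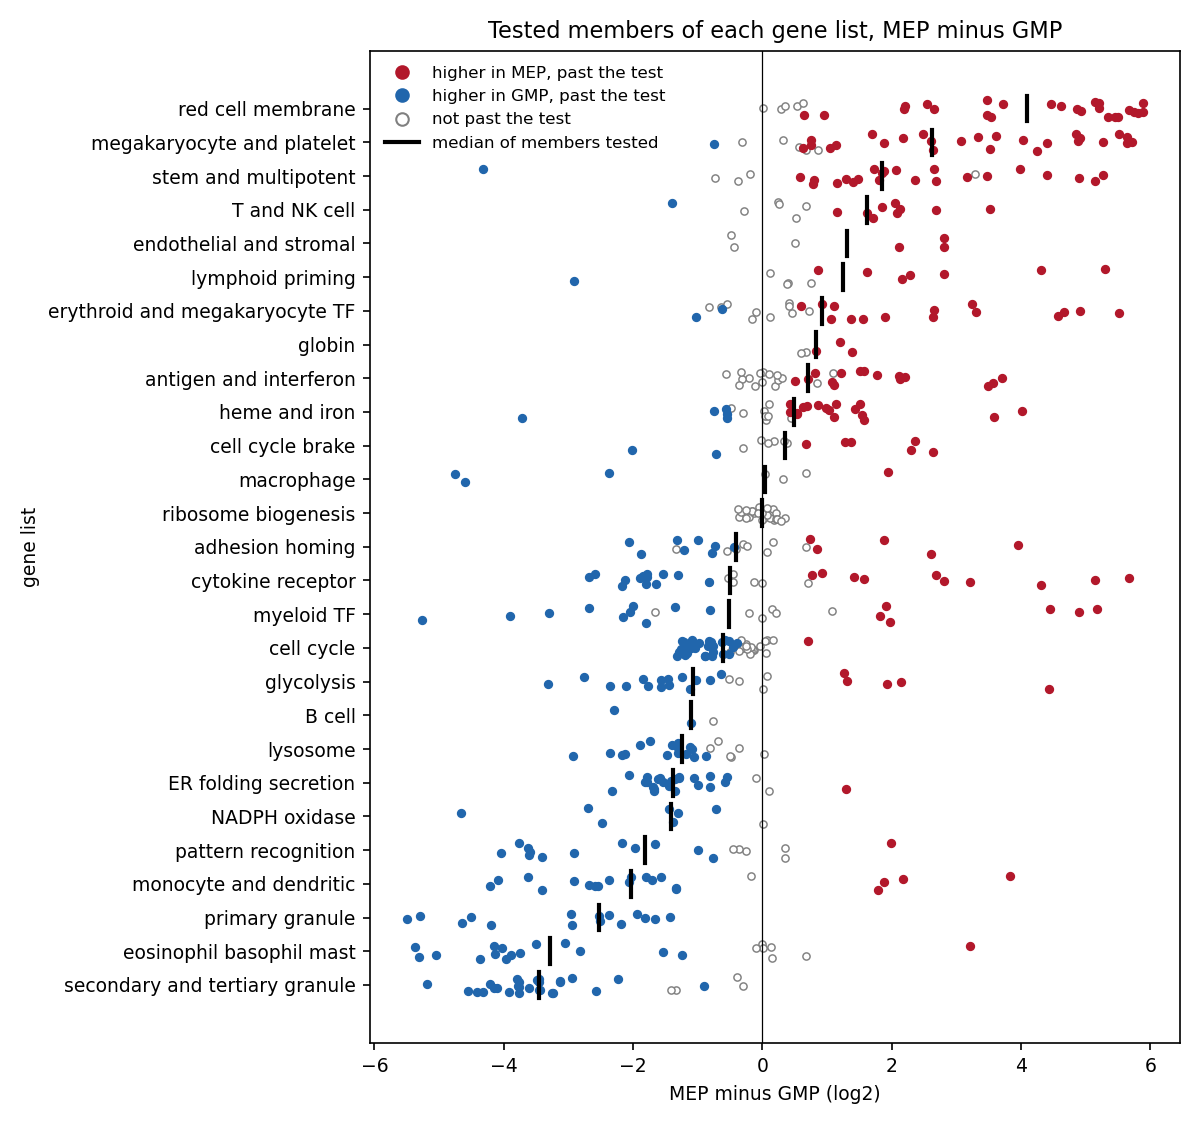
Differences MEP minus GMP (horizontal, log2) of the tested members of 27 gene lists (vertical), with filled points past the test (red higher in MEP, blue higher in GMP), open points not past it and a black bar at the median. Red cell membrane genes have the highest median (4.10) and secondary and tertiary granule genes the lowest (-3.46); the vertical scatter within a list carries no meaning.

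The largest single differences included genes outside the classical programmes. Among genes detected on all 5 arrays, the 12 with the largest differences toward MEP lay between 5.5 and 6.05. Ces2g, a carboxylesterase, led them at 3.76, 4.09 and 3.48 in MEP and -1.92 and -2.63 in GMP (6.05 ± 0.24, adjusted p = 4.6e-10), ahead of Aqp1 and Zg16, a zymogen granule protein (5.84 ± 0.36). Samd14, a gene bound by GATA factors in progenitors, differed by 5.79 ± 0.33 and the sodium pump subunit gene Atp1b2 by 5.64 ± 0.39.

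Toward GMP the leading genes were Prom1, a membrane glycoprotein, and several known from epithelia and neurons. Prom1 read -3.01, -1.87 and -2.08 in MEP and 3.94 and 3.78 in GMP. Dmkn, dermokine of the skin, read -1.51, -1.05 and -0.96 against 4.87 and 4.93 (-6.07 ± 0.39), Celsr3, a cadherin of neurons, differed by -5.70 ± 0.29, Ncam1, a neural cell adhesion molecule, by -5.59 ± 0.43 and Mtus1 by -5.67 ± 0.55. The adjusted p-values of these genes were at most 1.7e-06. The innate receptor gene Trem3 (-5.47 ± 0.48) and complement C3 (-5.39 ± 0.43) followed.

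Some genes were detected on all arrays of 1 branch and on none of the other. Such genes numbered 348 among the 1284 genes at least 2-fold higher in MEP and 74 among the 1337 at least 2-fold higher in GMP. The first count required absence on only 2 GMP arrays and the second on 3 MEP arrays. The GMP arrays were also dimmer, so the counts cannot be set against each other. On the MEP side Tceal3, a transcription elongation factor relative, was at least 45.7-fold higher, Shank3, a scaffold known from synapses, at least 45.2-fold and the mitochondrial carrier gene Slc25a21 at least 39.6-fold. On the GMP side Olr1, the receptor for oxidised LDL, was at least 43.1-fold higher, the amino acid transporter gene Slc36a2 at least 31.1-fold and the glucosidase gene Mgam at least 19.9-fold, with 1 of the 2 Mgam probes detected. The adjusted p-values of these 6 genes were at most 4.0e-08.

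The noncoding features separated the branches less often than named genes did. Of 836 custom features tested 228 were called (27.3%), 127 higher in MEP and 101 lower, against 4967 of 13136 named genes (37.8%), and of 2628 intergenic regions tested 435 were called (16.6%), 253 higher and 182 lower. The difference between these shares was not tested, and the kinds of feature differ in signal. The custom features formed 4 sets, for pseudogenes, small-RNA overlapping genes and 2 grades of long noncoding RNA, and the sources used here do not say which set is which. In set 1, 4 of 132 tested were higher in MEP and 25 lower, and in set 3, 53 of 264 were higher and 21 lower.

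The largest custom differences were as wide as those of the marker genes. TCONS_00060256, of set 4, read 3.51, 3.95 and 3.39 in MEP and -1.92 and -3.45 in GMP (6.30 ± 0.57, adjusted p = 8.1e-07). TCONS_00312140, also of set 4, differed by 5.30 ± 0.23 and reached 5.48 in early erythroblasts, and TCONS_00361656, of set 3, was at least 19.1-fold higher in MEP. Toward GMP, TCONS_00168307, of set 1, read -4.62, -4.88 and -5.14 in MEP and 1.95 and 1.70 in GMP (-6.70 ± 0.33, adjusted p = 1.7e-09), and TCONS_00464357, of set 4, differed by -5.89 ± 0.43. TCONS_00146095, of set 4, was detected on 0 of 3 MEP arrays and was at least 25.4-fold higher in GMP. In each of these 6 features all 3 probes had the same sign.

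Among the catalogue regions, in coordinates of build mm9, the region chr5:77084398-77086144 on the reverse strand read 2.32, 2.32 and 1.56 in MEP and -3.27 and -3.15 in GMP (5.28 ± 0.27, adjusted p = 2.6e-09). The region chr6:40699474-40719122 on the forward strand read -3.95, -3.06 and -4.51 in MEP and 3.03 and 2.85 in GMP (-6.78 ± 0.35, adjusted p = 2.8e-09). A wider region over the same place, chr6:40693617-40720167, differed by -5.63 ± 0.68, so they count as 1 locus. No annotation of build mm9 was used here, and neighbouring genes are not named. Of 13 known long noncoding RNAs tested, 3 were higher in MEP and 0 lower, against 13.5% and 18.5% of all features, with a median of 0.31. Mir17hg, the host of the miR-17 cluster, read 1.65, 1.99 and 2.28 against 1.18 and 1.18 (0.80 ± 0.19, adjusted p = 0.005), Malat1 differed by 0.72 ± 0.15 and Snhg3 by 0.35 ± 0.11. With spike-in scaling 0 of these 3 were called by limma, and Snhg3 lost its call in 6 other settings. Neat1 did not pass (-0.01 ± 0.16).

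CMP, the population sorted as their common precursor, lay nearer MEP than GMP in both gene sets. The CMP arrays lay on slides 2, 3 and 4, as the MEP arrays did, and GMP lay on slides 1 and 3. The part of the slide in this nearness was not tested. The CMP mean was nearer the MEP mean for 1110 (86.4%) of the 1284 named genes at least 2-fold higher in MEP, and it was nearer the GMP mean for 249 (18.6%) of the 1337 at least 2-fold higher in GMP. On a scale from 0 at the other branch to 1 at the branch of the gene, the median position of CMP was 0.75 for the first set and 0.30 for the second. Epor shows the first pattern, at 4.48 to 5.11 on CMP arrays within or near the MEP range of 4.80 to 5.29, and Cebpe the second, with a CMP mean of 2.41 between 1.17 in MEP and 6.43 in GMP. LSK cells were at or above the MEP mean for 646 of the genes higher in MEP and at or above the GMP mean for 104 of those higher in GMP. For the 1284 genes the highest mean was in LSK for 450, MEP for 259, early erythroblasts for 210, late erythroblasts for 187, granulocytes for 138 and CMP for 40. For the 1337 it was in GMP and granulocytes for 580 each, early erythroblasts for 109, late erythroblasts for 44, LSK for 22 and CMP for 2. These counts describe the arrays at hand and share the MEP and GMP arrays with the calls.

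**Figure D4:**
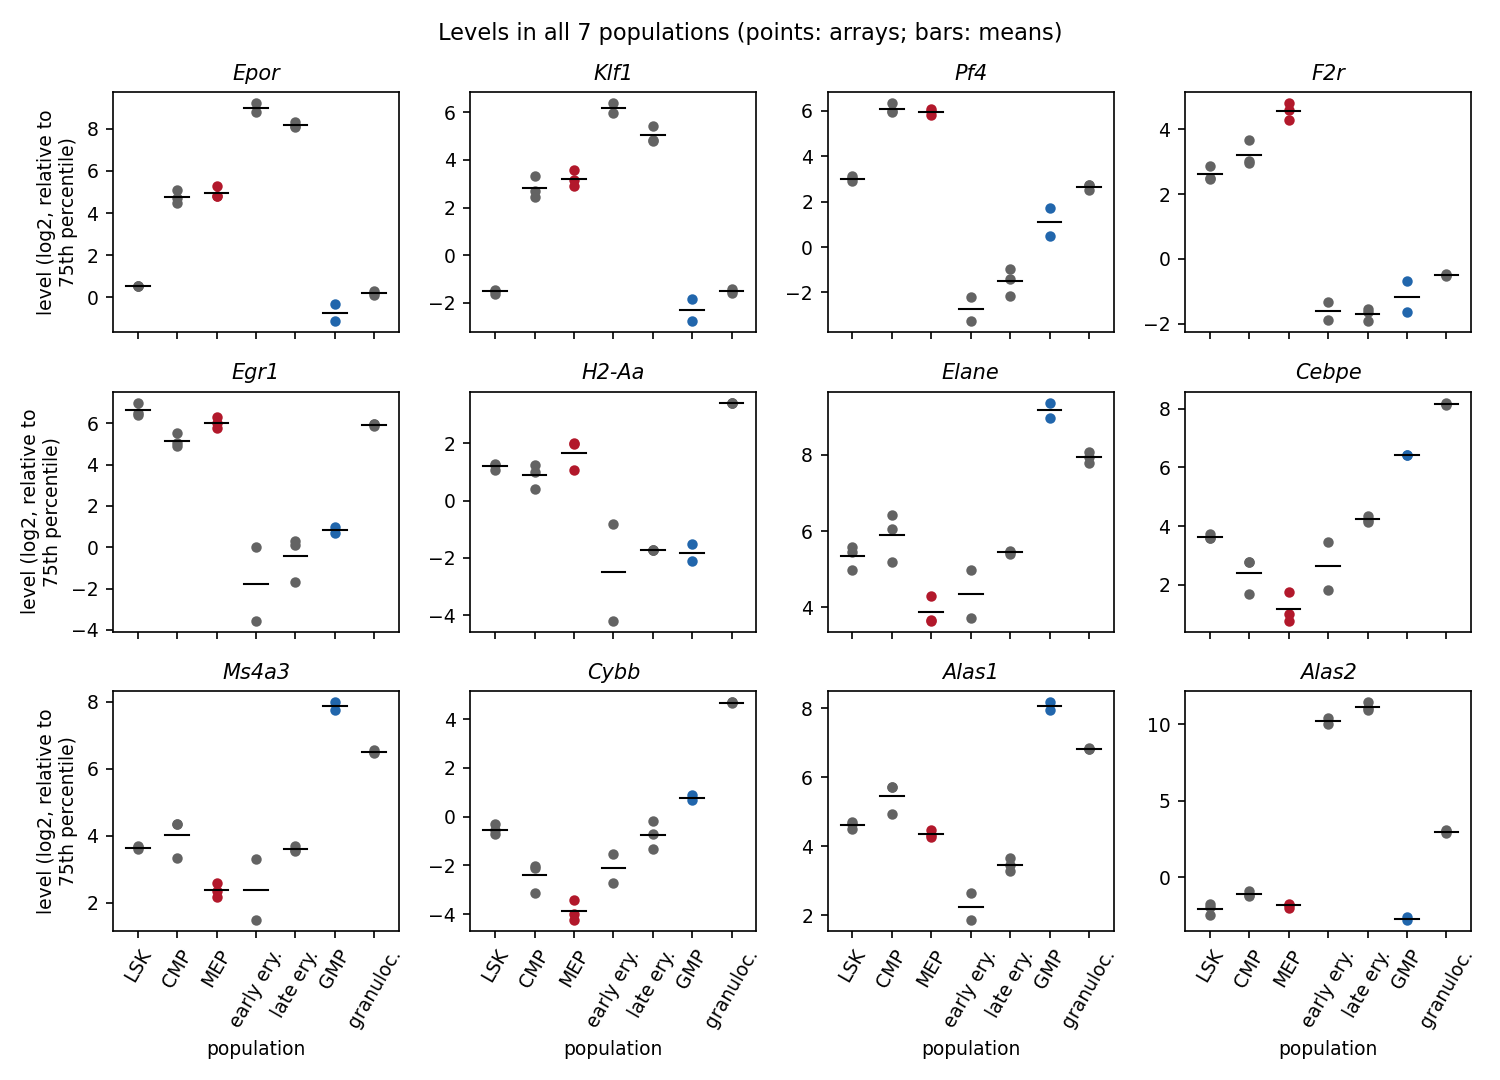
Levels of 12 genes (vertical, log2 of signal over the array's 75th percentile, a separate scale in each panel) on every array of the 7 populations, with black bars at the means, MEP in red, GMP in blue and the others in grey. On this relative scale Epor and Klf1 stand higher in early erythroblasts than in MEP, while Pf4 and F2r are low there (-2.74 and -1.61). Cybb and Cebpe are highest in granulocytes, and Elane and Ms4a3 are highest in GMP. The early erythroblast arrays have a low 75th percentile, so the levels do not rank RNA between populations.

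Whether the branch genes kept their side in mature cells was asked with early erythroblasts and granulocytes, which share no array with MEP or GMP. In that comparison 78.8% of 23290 features were called, 45% higher in early erythroblasts and 33.8% higher in granulocytes. Of the genes at least 2-fold higher in GMP, 1286 could be tested there, and 1030 (80.1%) were higher in granulocytes and 155 (12.1%) in early erythroblasts. For all 13684 named genes tested the shares were 42.0% and 39.5%. The GMP genes made up 17.9% of the list higher in granulocytes and 2.87% of the list higher in early erythroblasts. Of the genes at least 2-fold higher in MEP, 1034 could be tested, and 445 (43.0%) were higher in early erythroblasts and 446 (43.1%) in granulocytes. They made up 8.24% of the early erythroblast list and 7.77% of the granulocyte list. The early erythroblast arrays were dim, with the 75th percentile at 64.2 and 81.3 intensity units, and with spike-in scaling only 1042 of 18945 calls were higher in them. Under that scaling the MEP genes were higher in early erythroblasts for 16.3% and in granulocytes for 68.4%, against 4.05% and 80.8% of all genes. The share of MEP genes higher in early erythroblasts exceeded that of all genes in the other scalings too, at 45.5% against 36.4% with normexp, 43.2% against 36.0% with quantile normalization and 41.5% against 35.5% with the detected-probe percentile. Their share higher in granulocytes was 30.5% against 37.8%, 45.2% against 45.0% and 44.6% against 45.5% in the same order. The granulocyte arrays also differed in a Y-linked gene: Ddx3y read -7.18, -7.11 and -6.60 on them, 1.69 to 1.99 on the MEP and GMP arrays and 2.05 and 2.20 on the early erythroblast arrays. Xist, the RNA of the inactive X chromosome, read -0.49, -0.51 and -0.22 on the granulocyte arrays and -4.81 or less on all others. Sex and population therefore cannot be told apart in that comparison.

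Relative to the 75th percentile of each array, some MEP genes stood higher in early erythroblasts than in MEP and others lower. That percentile was 64.2 and 81.3 intensity units in early erythroblasts and 403 to 554 in MEP. The levels therefore do not rank RNA between these populations. The red cell genes Aqp1, Kel and Rhd had means of 10.88, 8.95 and 10.75 in early erythroblasts, each above the MEP mean of the same gene. The platelet genes F2r (-1.61) and Pf4 (-2.74), the stem cell genes Meis1 (-2.48) and Angpt1 (-4.15), and Egr1 (-1.78) and Dntt (-0.83) had means there below every MEP array. Gata2 showed the same, at 4.42, 4.93 and 4.99 in MEP and -2.99 on average in early erythroblasts, whereas Gata1 averaged 7.87 there. Myeloid genes differed among themselves in granulocytes: Cebpe had its highest mean in granulocytes (8.18), while Elane (7.93) and Ms4a3 (6.51) had lower means in granulocytes than in GMP (9.17 and 7.88).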

How the data were processed

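Each of the 19 samples, from 7 sorted populations of bone marrow, was hybridised to its own custom Agilent array as total RNA. Cy5 is the dye in the labels, and the files hold 1 channel, named green, which was treated as single-colour. Per the file headers, Agilent Feature Extraction 11.5.1.1 (protocol GE1_1105_Oct12) gave the intensity of each spot as deposited, with local background removed and outliers marked, and the annotation is of mm9; the submitters' processing notes name the same program. The authors' series values equal the background-subtracted intensity for 100% of the spots and served as an alternative.

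From the log2 processed signal the 75th percentile of the non-control spots of the array was subtracted. Control spots (1319 of 62543) and outlier flags were left out, and no spot was saturated. A gene was represented by its probe with the highest mean over all arrays, and of 55681 catalogue probes 27235 were named through RefSeq genes of GRCm38.p6. Of 1783 features called that had 2 or more detected probes, 93.0% had the same sign in all of them. Limma 3.58.1 in R 4.3.3 was fitted to all 19 arrays as means of the populations, which share 1 estimate of the spread, with eBayes and Benjamini-Hochberg adjustment at 0.05. Where no array of the lower population was well above background, the fold is a bound against the detection floor. The files used hold no mean signal, so normexp (offset 50) used the median signal.

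Genes named are the 12 largest differences each way among genes detected on all 5 arrays, the 8 largest bounds each way, up to 6 members of each list, 5 custom features and 5 regions each way, 21 genes named whatever their values, and up to 4 genes each way whose sign differs between stages; not all are printed, and some are not reported here. Other members were picked as examples after their values were seen. The members and lists were chosen with earlier results of these data known. Alternatives were other scalings, filters, probe rules, a slide and a replicate block, and leaving out each array.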

Additional observations from a re-analysis of the deposited data

Results flagged for a closer look

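Some genes differed between MEP and GMP in one direction and between early erythroblasts and granulocytes in the other, and the difference between the stages was itself tested as an interaction in limma. It was called for 11478 of 15547 features (73.8%), with 24.4% of those tested called positive and 49.5% negative. Among named genes called in both comparisons with opposite signs, 290 were higher in MEP and in granulocytes and 797 were higher in GMP and in early erythroblasts. Whether these counts depart from the shares of all features was not tested. The early erythroblast arrays are dim, and with spike-in scaling 12927 of 13044 calls were positive. The median interaction was -0.66 in the main setting and 3.20 with spike-in scaling. The counts and the single values below therefore both depend on the scaling. Of the first kind, Nr4a1 had an interaction of 11.42 ± 0.81 (log2 ± SE), with 5.01, 5.47 and 6.68 on MEP arrays, 1.41 and 1.12 on GMP, -0.96 and 1.5 on early erythroblast and 7.2, 7.28 and 7.24 on granulocyte arrays. Clec4d had 10.82 ± 0.31, the class II gene H2-Eb1 9.87 ± 0.51 and Plek, a signalling protein of platelets and leukocytes, 9.80 ± 0.52. Of the second kind, the histone genes H2bc18, H2bc3 and H2ac21, members of a family of near-identical copies that a probe may not tell apart, had -7.74 ± 0.44, -7.64 ± 0.56 and -6.91 ± 0.55, and the transporter gene Slc22a4 had -6.81 ± 0.33. Their adjusted p-values were at most 2.1e-08. The MEP minus GMP difference of the histone genes was small (-1.26, -1.29 and -1.35), and all 3 lost that call with the slide as a block, with spike-in scaling and without GMP 2. The granulocyte arrays lack the Y-linked signal of the others, so sex and population cannot be told apart here.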

How the results depend on the processing

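The count of features called between MEP and GMP (7023) fell to 2987 with spike-in scaling and lay between 5104 (without GMP 1) and 6593 (without MEP 1) when 1 array was left out; the other settings gave 5731 to 8623. Without a filter on dim probes, early erythroblasts and granulocytes differed in 29157 features in place of 18361, and the interaction was called for 25236 in place of 11478. Csf3r changed sign with normexp (0.10), quantiles (0.32), the detected-probe percentile (0.25), spike-in scaling (0.76), the authors' series values (0.0047) and without MEP 1 (0.082) or MEP 2 (0.083), with -0.20 to 0.083 over the arrays left out, and Cd34 with quantiles (0.20), the detected-probe percentile (0.067), spike-in scaling (0.58) and without MEP 2 (0.042), with -0.35 to 0.042; neither passed the test in the first place, and the cause was not tested. No other of the 205 genes and features chosen for naming changed sign in any setting. Most were chosen because their MEP and GMP arrays do not overlap, so their sign could not change when 1 array was left out. Spike-in scaling took 41 of them out of the calls, and leaving out GMP 1 or GMP 2 took out 9 and 10. Replicate numbers are shared by MEP and GMP for 2 pairs, whose deviations correlated at -0.0617 and 0.186, and the second pair also shares slide 3. With 2 GMP arrays the deviations from their mean mirror one another. The check therefore cannot show whether the numbers pair the arrays. With a replicate block 6594 features were called. MEP 3 has the highest floor, and dim genes are limited by it, since 21930 features could be tested with it and 24497 without it.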
